A study of Homo sapiens with 14 samples.

Results

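The S100 genes are a family of small calcium-binding proteins, and 10 of them were described here in 3 human ovarian cancer cell lines grown with GSK-J4 or GSK-J5: S100A2, S100A4, S100A6, S100A9, S100A10, S100A11, S100A13, S100A14, S100A16 and S100P. They are 10 of 58825 genes in the count tables, matched by symbol, and 10 of the 21 S100 family genes looked up there. The 10 genes were chosen by name with earlier results of these same libraries in view, so their levels and their differences between GSK-J4 and GSK-J5 are given below as a description, without p-values. Which values led to the list is not recorded, and counts of members past a threshold support nothing by themselves.

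Most S100 proteins, though not all, bind calcium through paired EF-hand motifs, largely as dimers. On binding they expose a surface that docks onto partner proteins such as annexins, cytoskeletal proteins and p53. Some are also released from cells and act on receptors such as RAGE, the product of AGER. Most of the genes lie in a cluster on chromosome 1q21, and several are studied in carcinomas, ovarian cancer among them, because their levels differ between epithelial and more mesenchymal or invasive tumour cells.

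GSK-J4 enters cells and inhibits KDM6A (UTX) and KDM6B (JMJD3), the enzymes that remove methyl groups from lysine 27 of histone H3. GSK-J5, an isomer of it, serves as the inactive control. OVCAR-3, CAOV3 and SKOV3 are established human ovarian cancer lines. Every library came from cells given 1 of the 2 compounds, which the series text puts at 2.5 µM for both, and none from untreated cells. There were 22 libraries: 3 with each compound in each line at 72 h, and a further 2 with each in OVCAR-3 at 48 h. Replicates 1 and 2 formed a first library set, whose labels mention stripped medium, and replicate 3 a second set, whose labels name another RNA kit and poly(A) enrichment. The labels do not say that replicates came from separate cultures, so the spread given here may be partly technical. Each line is 1 cell line grown in its own medium, so the line and its medium cannot be told apart.

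Library totals ran from 24037007 to 37990707 counts, and levels are given as CPM (counts relative to library size) scaled by TMM, a correction of library size for composition. A count of 0 allowed a level of up to 0.079 to 0.1248 CPM in a library, for counting error only. All 6 epithelial markers reached 10 counts in every library, but their summed level was 766 to 1840 CPM in SKOV3 against 5677 to 9801 CPM in OVCAR-3 and CAOV3. Of 6 ovarian and Müllerian markers, WT1 did not reach 10 counts in every CAOV3 library and MUC16 did not in SKOV3. Of the targets of GSK-J4, KDM6B rose in OVCAR-3 at 48 h by 0.89 on the log2 scale (SE 0.16, edgeR adjusted p = 0.0188), and KDM6A was not called there (log2 0.33, adjusted p = 0.161). KDM6B was not called at 72 h in OVCAR-3 (log2 0.16, adjusted p = 0.4), CAOV3 (log2 −0.46, adjusted p = 0.134) or SKOV3 (log2 0.00, adjusted p = 0.999), and its 48 h call was lost without any 1 of the 4 libraries of 48 h.

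Of the 10 S100 genes, 9 (S100A9 on the plus strand, the others on the minus strand) lie between positions 151982915 and 153631360 of chromosome 1 on GRCh38. S100A10 (151982915 to 151994390) and S100A11 (152032506 to 152047907) are neighbours at one end. The other 7 share 274 kb, from 153357854 to 153631360, in the order S100A9, S100A6, S100A4, S100A2, S100A16, S100A14 and S100A13. S100P stands alone on chromosome 4 (6693069 to 6697170, plus strand). The exons of S100A13 overlap other genes over 33.5% of their bases. On the opposite strand the overlap is with S100A1, over 10.6%, and another gene overlaps on the same strand. The strand setting of the counting was not stated in the sources used, and the overlap on the same strand does not depend on it. Both leave the counts of S100A13 uncertain.

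The sequences before the start sites of 4 members are shown because the results below on the compounds turn on S100A10 and S100A2 in OVCAR-3 and on S100A6 and S100A4 in CAOV3, and because they include CpG-rich and CpG-poor windows. Each is the 200 bases before a RefSeq start on GRCh38.p14, minus strand, written 5′ to 3′. Capitals mark GGGCGG (the GC box) in S100A10 and S100A6, TATAAA (the TATA box) in S100A4, and TGANTCA (the AP-1 motif) in S100A2. The windows are chr1:151993860-151994059 for S100A10, chr1:153535992-153536191 for S100A6, chr1:153545807-153546006 for S100A4 and chr1:153565845-153566044 for S100A2.
S100A10: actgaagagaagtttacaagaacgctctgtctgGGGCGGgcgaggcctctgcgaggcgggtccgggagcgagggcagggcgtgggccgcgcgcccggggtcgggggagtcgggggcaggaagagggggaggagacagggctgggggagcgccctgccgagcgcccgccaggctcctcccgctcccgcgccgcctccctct
S100A6: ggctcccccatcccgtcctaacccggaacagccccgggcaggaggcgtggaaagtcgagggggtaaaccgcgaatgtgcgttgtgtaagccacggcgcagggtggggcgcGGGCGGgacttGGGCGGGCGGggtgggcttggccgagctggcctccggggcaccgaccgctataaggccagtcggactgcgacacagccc
S100A4: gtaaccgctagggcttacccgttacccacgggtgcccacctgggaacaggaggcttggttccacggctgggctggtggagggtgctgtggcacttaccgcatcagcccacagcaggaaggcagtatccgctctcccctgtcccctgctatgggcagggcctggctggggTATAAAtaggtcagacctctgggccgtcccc
S100A2: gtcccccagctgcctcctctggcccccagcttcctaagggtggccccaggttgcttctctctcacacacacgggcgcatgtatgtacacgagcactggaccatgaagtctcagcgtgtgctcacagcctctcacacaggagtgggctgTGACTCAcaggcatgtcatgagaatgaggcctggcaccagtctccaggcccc

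RefSeq gave 14 windows for the 10 genes, each of 250 bases before to 50 after a start, and 5 motifs were searched on both strands. GGGCGG was found in 6 of the 14 windows and in 44.9% of all 34943 windows of the table. In S100A6 it occurred 3 times, the copies beginning 90, 79 and 75 bases before the start and the last 2 of them overlapping. TATAAA was found in 4 windows against 11.6% of all, in S100A4, S100A9, S100P and one start of S100A13, and in S100A4 it began 31 bases before the start. TGANTCA was found in 1 window, that of S100A2, against 7.72% of all. TTCNNNGAA (7.66% of all windows) and CACGTG (7.23%) were in none of the members' windows.

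The ratio of CpG dinucleotides observed to those expected from base composition split the members' windows into 2 ranges. It was 0.781 to 0.866 in 4 windows, those of S100A6, S100A10, S100A11 and the first start of S100A13, and 0.118 to 0.429 in the other 10. The first window of S100A13 (153634312 to 153634611) lies outside the gene's span in the annotation used (153618787 to 153631360). It lies within the span of CHTOP on the plus strand (153633982 to 153646306). The S100A13 windows inside its own span had ratios of 0.375 and 0.429. The median of all windows was 0.577, and 41.9% of them were above 0.7. The 12 windows of 9 other S100 genes ran from 0.0452 to 0.334, below the CpG-rich windows of the members, and 2 of the 11 other S100 genes had no window in the table. Of the 4 genes with a CpG-rich window, S100A6, S100A10 and S100A11 had 145.8 CPM or more in every library, whereas S100A13 had 9.07 CPM at most. Among the members with lower ratios only, S100A16 ran from 93.7 to 736 CPM over the libraries and S100A4 from 32.3 to 1248. S100A2 ran from 7.92 to 345 and S100A14 from 0.499 to 365, while S100A9 and S100P had 6.10 and 21.7 CPM at most. Whether the CpG ratio has a part in the levels was not tested.

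**Figure D1:**
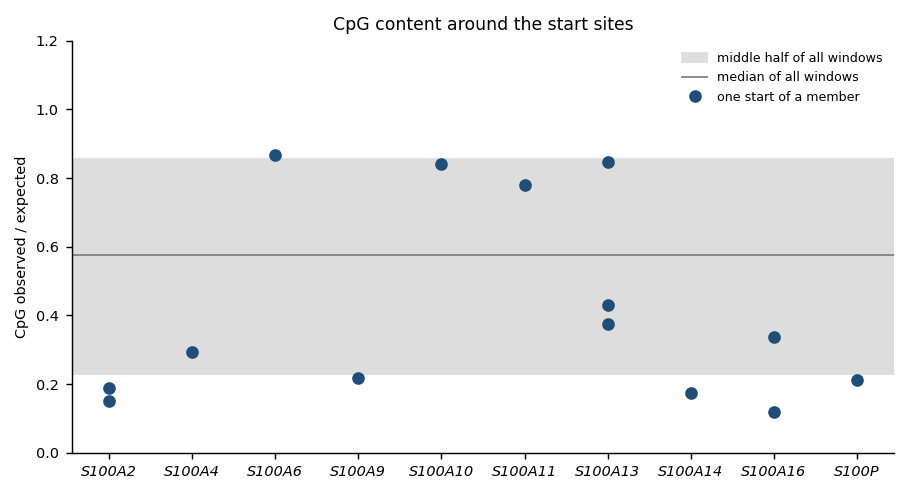
CpG observed over expected (y axis) in the window of each RefSeq start of the 10 S100 genes (points), with the quartile range (0.228 to 0.855, grey band) and median (0.577, line) of 34943 windows. S100A6, S100A10, S100A11 and 1 start of S100A13 lie at 0.781 to 0.866 and every other start at 0.429 or below.

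Levels with GSK-J5 at 72 h set the background against which GSK-J4 was read. The summed level of the 10 genes was 1091 ± 144 CPM in OVCAR-3, 3066 ± 318 CPM in CAOV3 and 5083 ± 1745 CPM in SKOV3 (mean ± SD, n = 3 each). For the order within a line, levels were divided by exon length and are given as CPM per kilobase. S100A6, also called calcyclin, was first in all 3 lines, at 410 ± 80.3 in OVCAR-3, 1721 ± 283 in CAOV3 and 2904 ± 932 in SKOV3 (SD, n = 3). No other member overlapped it in any line.

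Below S100A6 the order differed by line. In OVCAR-3, S100A11 (257 ± 70.1 CPM per kilobase) and S100A10 (171 ± 24.5) followed, then S100A16, S100A4 and S100A14, which overlapped their neighbours in the order. In CAOV3, S100A11 (378 ± 28.2) was next, and S100A16 (239 ± 19.6), S100A10 (233 ± 12.4) and S100A14 (221 ± 21.6) overlapped one another. In SKOV3, S100A4 (749 ± 526), S100A11 (494 ± 70.1) and S100A16 (379 ± 57.1) followed, with S100A4 overlapping S100A11 because of the low value of replicate 3 (146). S100A13 stayed near the bottom in every line, at 2.14 ± 0.554, 2.10 ± 0.806 and 2.96 ± 1.40 CPM per kilobase in OVCAR-3, CAOV3 and SKOV3 (SD, n = 3).

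**Figure D2:**
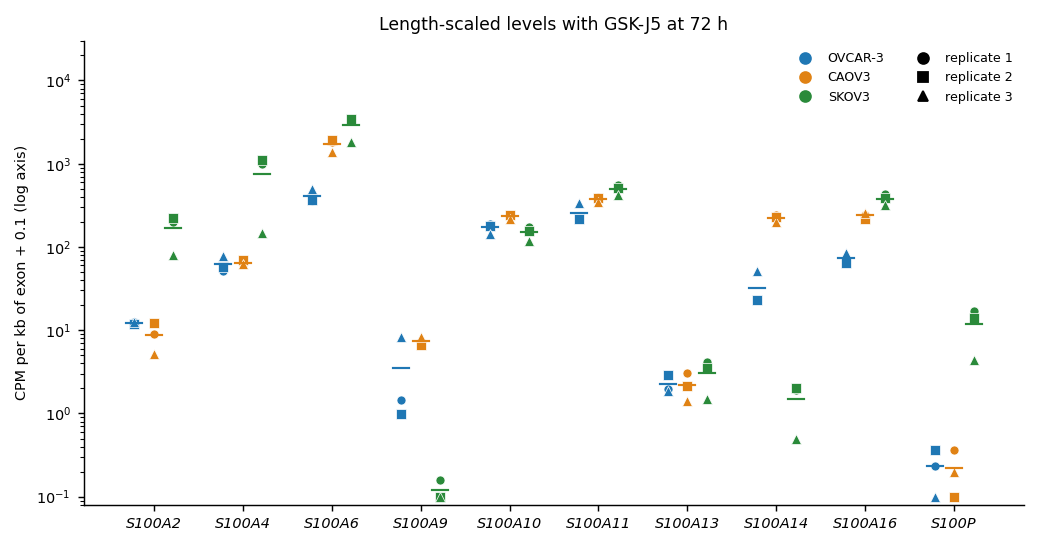
Levels with GSK-J5 at 72 h as CPM per kilobase of exon plus 0.1 on a log axis, by gene and line (colour), with points for the 3 libraries and a bar for their mean. S100A6 is highest in each line, S100A2 and S100P stand out in SKOV3, and S100A14 is at 221 in CAOV3 against 1.37 in SKOV3.

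Between lines, edgeR's fit of the 9 GSK-J5 libraries called 5 of the 10 members lower in OVCAR-3 than in CAOV3 and none higher, where 54.5% of 19079 genes were called in either direction. Against SKOV3, 6 were lower and 2 higher in OVCAR-3, where 57.5% of genes were called. CAOV3 was lower than SKOV3 for 5 and higher for 3, where 59.8% of genes were called. The members' shares (5, 8 and 8 of 10) stand beside these backgrounds, and nothing is read from them. The fit used 1 set term for all lines, so its fold differences average over sets that shifted differently by line. Without replicate 1 the counts were 2, 6 and 5, where 34.2%, 37.3% and 39.9% of genes were called, and without replicate 2 they were 3, 6 and 5, where 34.2%, 37.8% and 40.5% were.

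S100A2, which binds p53 and is found in the nucleus, was a gene of SKOV3. Its GSK-J5 levels at 72 h were 313, 345 and 126 CPM in SKOV3, 19.7, 18.2 and 19.6 in OVCAR-3, and 13.8, 19.1 and 7.92 in CAOV3. Even the lowest SKOV3 library was above every library of the other 2 lines. The difference from OVCAR-3 was 3.60 on the log2 scale (SE 0.30), or 12.2-fold.

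S100A4, known as metastasin for its part in cell motility through nonmuscle myosin, had the same pattern in the first library set. Levels were 1011 and 1143 CPM in SKOV3 replicates 1 and 2 but 149 in replicate 3, against 52.3, 58.6 and 79.2 in OVCAR-3 and 63.4, 72.1 and 63.7 in CAOV3. SKOV3 was above the other lines in every library. The fit put it 10.4-fold over each, with an SE of 0.65 and 0.64 on the log2 scale. This value lies between the 2 library sets and describes neither: the distance was larger in replicates 1 and 2 and much smaller in replicate 3.

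S100A14 ran the other way. It was at 307, 288 and 253 CPM in CAOV3, 29.2, 28.9 and 66.1 in OVCAR-3, and 2.29, 2.48 and 0.499 in SKOV3, so that the 3 lines did not overlap. CAOV3 was above OVCAR-3 by 6.88-fold (OVCAR-3 minus CAOV3 log2 −2.78, SE 0.46) and OVCAR-3 above SKOV3 by 22.7-fold (log2 4.51, SE 0.53). S100A14 is mostly an epithelial gene. The 6 epithelial markers summed to 9135 to 9801 CPM in OVCAR-3, 6688 to 6844 in CAOV3 and 820 to 1840 in SKOV3, so OVCAR-3 was above CAOV3 for the markers and below it for S100A14. EPCAM had 15.4, 19.9 and 3.58 CPM in SKOV3 against 280 CPM or more in the other lines, whereas KRT19 had 624, 891 and 41.8 CPM in SKOV3 against 655, 634 and 719 in CAOV3. Whether the marker state has a part in the S100A14 level was not tested.

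S100A16, a widely expressed member, was at 736, 654 and 542 CPM in SKOV3, 414, 371 and 436 in CAOV3 and 116, 110 and 145 in OVCAR-3, again without overlap between lines. S100A11 followed SKOV3, CAOV3 and OVCAR-3 in the same order, at 336 ± 47.6, 257 ± 19.2 and 175 ± 47.6 CPM (SD, n = 3). The difference between SKOV3 and CAOV3 was not called for S100A11 (log2 0.38, 95% interval −0.05 to 0.81, CAOV3 lower). S100A10 differed least among the abundant members: 360 ± 19.2 CPM in CAOV3, 264 ± 37.9 in OVCAR-3 and 231 ± 42.8 in SKOV3 (SD, n = 3).

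S100P, which binds ezrin and can signal through RAGE, was a SKOV3 gene with 21.7, 17.7 and 5.53 CPM there. In the other lines it held 15 counts (OVCAR-3) and 14 counts (CAOV3) over 3 GSK-J5 libraries each, against 1374 counts in SKOV3. S100A9, which forms calprotectin with S100A8 in neutrophils and monocytes, was the reverse, with 382 counts in the 3 CAOV3 libraries and 1 count in those of SKOV3. Its level in CAOV3 was 4.10, 3.73 and 4.70 CPM.

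S100A8, the usual partner of S100A9, was at 0 counts in all 6 libraries of CAOV3 and all 6 of SKOV3, and at 0.660 CPM at most in OVCAR-3. Of 5 leukocyte markers, PTPRC, ITGAM and CD3E were at 0 in every CAOV3 library. The summed level of the 5 was 52.3 to 111 CPM across CAOV3 libraries, and CD14 gave nearly all of it. The part of other cells in the S100A9 signal was not tested.

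Of the 11 other S100 genes, S100A7A and S100G had no count in any of the 22 libraries, and S100A7, S100A7L2, S100A12 and S100B had 3 counts or fewer over all of them. S100A3 lies within the span of S100A4 on the same strand, without shared exon bases, and S100A5 lies beside S100A4. Both were seen mainly in SKOV3, where S100A3 had 22.1, 20.2 and 10.6 CPM with GSK-J5. The part of S100A4 transcripts in the S100A3 counts was not tested. In OVCAR-3 and CAOV3 no GSK-J5 library exceeded 0.861 CPM of S100A3.

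**Figure D3:**
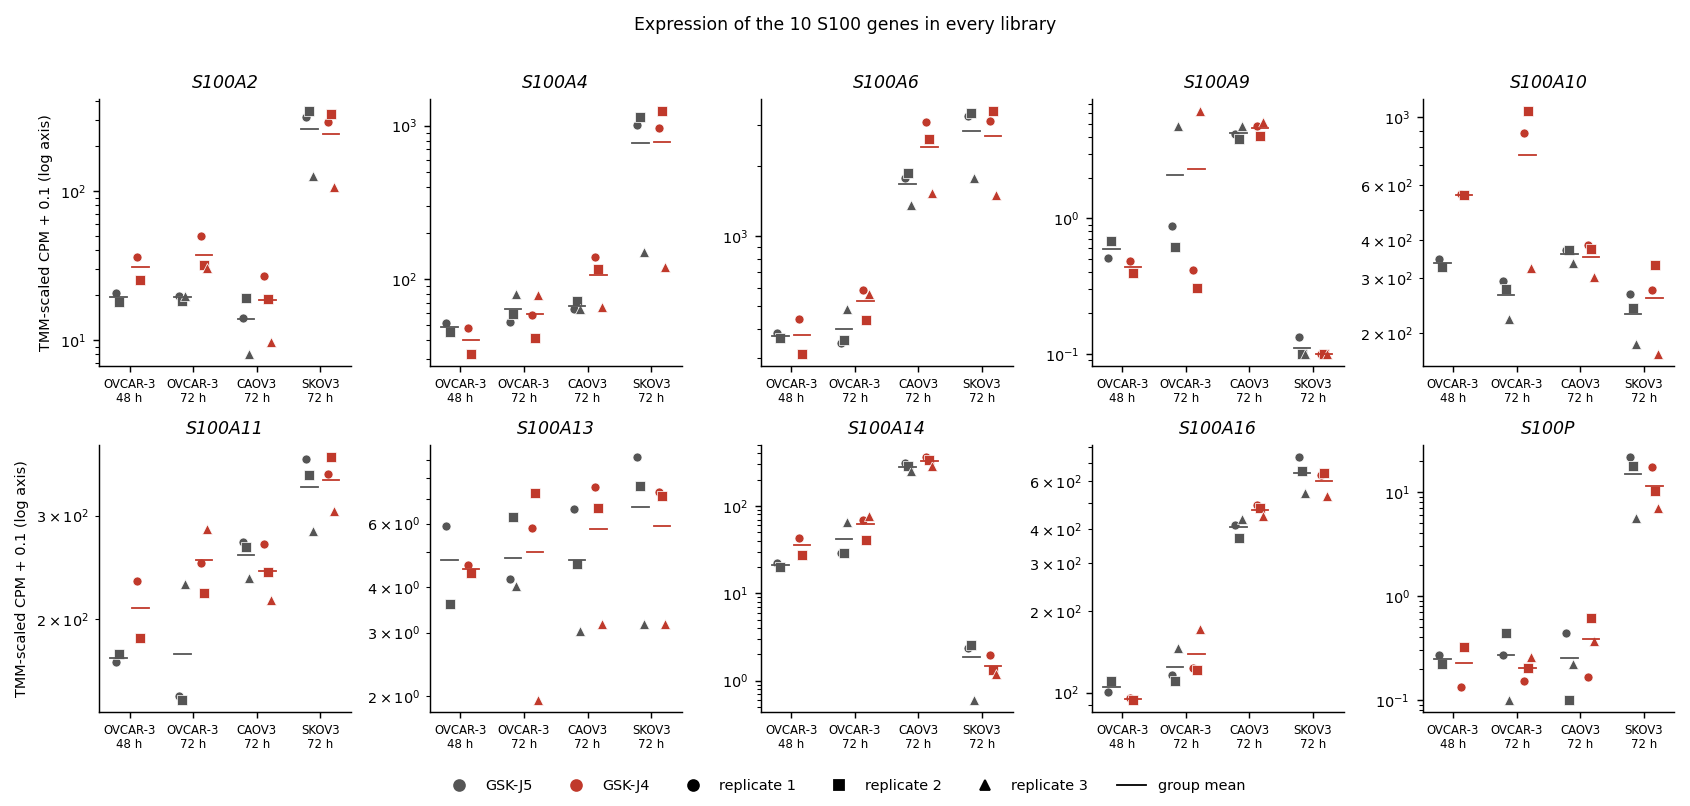
TMM-scaled CPM plus 0.1 (log axes, scaled per panel) of each S100 gene in the 22 libraries, by line and time, with GSK-J5 in grey, GSK-J4 in red, a marker shape per replicate and bars for group means. S100A10 in OVCAR-3 reaches 886 and 1045 with GSK-J4 at 72 h against 324 in replicate 3, and replicate 3 (triangles) lies low in SKOV3 for S100A2, S100A4, S100A6 and S100P.

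In OVCAR-3, GSK-J4 went with higher S100A10, S100A2, S100A14 and S100A11 at both times. edgeR called none of the 10 at either time: at 48 h, 18.9% of 17402 genes were called, and at 72 h 0.0298% of 16802 (5 genes). At an unadjusted p under 0.05 there were 7263 genes at 48 h, 3 of them members, and 7244 genes at 72 h, 3 of them members. There were 9 members tested at each time, since S100P was filtered out for low counts. Libraries did not overlap for 4 members higher with GSK-J4 at 48 h (S100A2, S100A10, S100A11 and S100A14), where 37.8% of genes were separated that way. At 48 h, 2 members were separated lower (S100A9 and S100A16), against 42.8% of genes. At 72 h, 2 members were separated higher (S100A2 and S100A10) against 22.5% of genes, and none lower against 15.9%. DESeq2's Wald test called none of the members at 48 h, where it called 18% of 31514 genes. At 72 h it called S100A2, S100A10 and S100A11 higher, and 21.2% of 29067 genes. These are shares of all genes with any count, a wider base than edgeR's filtered genes, so they understate the share among well-counted genes such as most members. Without replicate 3, which exists only at 72 h, 3 members were called higher at 48 h, where 59% of genes were called, and 5 at 72 h, where 71.7% were. Without either 1 of its 2 libraries the counts were also 3 and 5. Nothing is read from these counts, as the members were picked with such values known.

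S100A10 is the light chain that joins annexin A2 in a heterotetramer at the plasma membrane, where it also binds plasminogen. At 48 h it had 346 and 326 CPM with GSK-J5 and 562 and 559 with GSK-J4 in OVCAR-3. At 72 h it had 294, 278 and 222 with GSK-J5 and 886, 1045 and 324 with GSK-J4. Every GSK-J4 library was above every GSK-J5 library of its time, but the first 2 replicates at 72 h stood far above the third. Within replicate numbers the ratio at 72 h was 3.01, 3.76 and 1.46. The fitted difference was 0.77 on the log2 scale at 48 h (SE 0.31, 1.70-fold) and 1.35 at 72 h (SE 0.32, 2.54-fold, 95% interval 1.47-fold to 4.40-fold).

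ANXA2, the partner of S100A10, had 2041 and 2188 CPM with GSK-J5 at 48 h and 2146 and 2118 with GSK-J4. At 72 h it had 1859, 1593 and 1802 CPM with GSK-J5 and 2522, 2955 and 2284 with GSK-J4, groups that did not overlap. The difference at 72 h was not called (log2 0.54, SE 0.21, edgeR adjusted p = 0.108), nor was that at 48 h (log2 0.04, adjusted p = 0.886). AHNAK, a giant scaffold protein bound by the S100A10 and annexin A2 complex, had 641, 776 and 786 CPM with GSK-J5 and 253, 285 and 689 with GSK-J4 at 72 h, which was not called in OVCAR-3 (log2 −1.01, SE 0.27, edgeR adjusted p = 0.0704).

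S100A11, a partner of annexin A1, showed a smaller difference. Its levels in OVCAR-3 at 72 h were 148, 146 and 230 CPM with GSK-J5 and 250, 221 and 285 with GSK-J4. The groups overlapped, because replicate 3 was high with both compounds, but the ratio was above 1 within each number (1.68, 1.52 and 1.24). The fitted difference was 0.31 at 48 h (SE 0.19) and 0.54 at 72 h (SE 0.18, 1.46-fold) on the log2 scale. ANXA1 was not called at 72 h (log2 0.49, SE 0.19, edgeR adjusted p = 0.104) or at 48 h (log2 0.08, adjusted p = 0.746).

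S100A2 in OVCAR-3 went from 20.4 and 17.96 CPM with GSK-J5 to 36.1 and 25.1 with GSK-J4 at 48 h. At 72 h it went from 19.7, 18.2 and 19.6 to 49.7, 31.8 and 30.2. Its GSK-J5 libraries at 72 h had an SD of 0.835 CPM (n = 3), and the GSK-J4 libraries all lay above them, in both library sets. The fitted difference was 0.70 at 48 h (SE 0.28) and 0.93 at 72 h (SE 0.25, 1.91-fold) on the log2 scale.

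S100A14 had 22.2 and 20.0 CPM with GSK-J5 and 43.1 and 27.4 with GSK-J4 at 48 h. At 72 h it had 29.2, 28.9 and 66.1 against 69.0, 40.8 and 76.7. Replicate 3 was high with both compounds at 72 h, so the groups overlapped there. The fitted log2 difference was 0.77 at 48 h (SE 0.33) and 0.67 at 72 h (SE 0.29). Of the 6 epithelial markers at 48 h, KRT7 rose (log2 1.42, edgeR adjusted p = 0.0399) and KRT8, KRT18 and KRT19 fell, and their summed level was 9369 and 9398 CPM with GSK-J5 against 5677 and 5967 with GSK-J4. With the replicate block only KRT19 of the 4 was called, and without any 1 of the 4 libraries of 48 h none was. At 72 h edgeR called none of the 6, with 2 at an unadjusted p under 0.05. The part of this marker state in the S100A14 difference was not tested.

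S100A6, which binds annexins and the calcyclin-binding protein CACYBP, was level at 48 h (382 and 365 CPM with GSK-J5, 441 and 312 with GSK-J4). At 72 h it had 347, 358 and 488 CPM with GSK-J5 and 586, 435 and 566 with GSK-J4. The ratio was above 1 within each number at 72 h, the groups overlapped, and the log2 difference was 0.41 (SE 0.21, 95% interval −0.10 to 0.93). CACYBP was not called at 72 h (log2 0.64, SE 0.15, edgeR adjusted p = 0.07).

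S100A4 and S100A16 showed little difference in OVCAR-3. At 72 h S100A4 had 52.3, 58.6 and 79.2 CPM with GSK-J5 and 58.0, 41.1 and 78.8 with GSK-J4 (log2 −0.12, 95% interval −0.58 to 0.33). S100A16 had 116, 110 and 145 against 123, 121 and 171 (log2 0.14, 95% interval −0.20 to 0.47). S100A13, which takes part in the release of FGF1 and IL1A, had 4.12, 6.15 and 3.94 CPM against 5.72, 7.19 and 1.85 (log2 −0.14, SE 0.42), too spread to place.

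S100A9 in OVCAR-3 split by library set. At 72 h it held 23, 15 and 135 counts with GSK-J5 (0.783, 0.515 and 4.67 CPM) and 6, 4 and 194 counts with GSK-J4 (0.318, 0.205 and 6.10 CPM). GSK-J4 was below GSK-J5 in replicates 1 and 2 and above it in replicate 3. At 48 h the levels were 0.413 and 0.584 CPM with GSK-J5 and 0.385 and 0.295 with GSK-J4. CD14 was also higher in replicate 3 of OVCAR-3, at 3.91 and 4.27 CPM against 0.205 to 1.37 CPM in replicates 1 and 2, whereas PTPRC was at 1.00 and 0.0943 CPM there. Their part in the S100A9 level was not tested.

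Whether the GSK-J4 effect in OVCAR-3 changed from 48 h to 72 h was asked of the 9 members tested, and none was called, where 0.00575% of 17402 genes (1 gene) were called, and no member had an unadjusted p under 0.05 against 1279 genes. DESeq2's Wald test called none either, and 0.397% of genes. The change was 0.61 on the log2 scale for S100A10 (95% interval −0.33 to 1.55) and 0.40 for S100A6 (95% interval −0.29 to 1.09). Without replicate 3, or without either 1 of its libraries, S100A10 was called higher at 72 h than at 48 h, where 27%, 25.2% (without GSK-J5) and 24.4% (without GSK-J4) of genes were called.

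**Figure D4:**
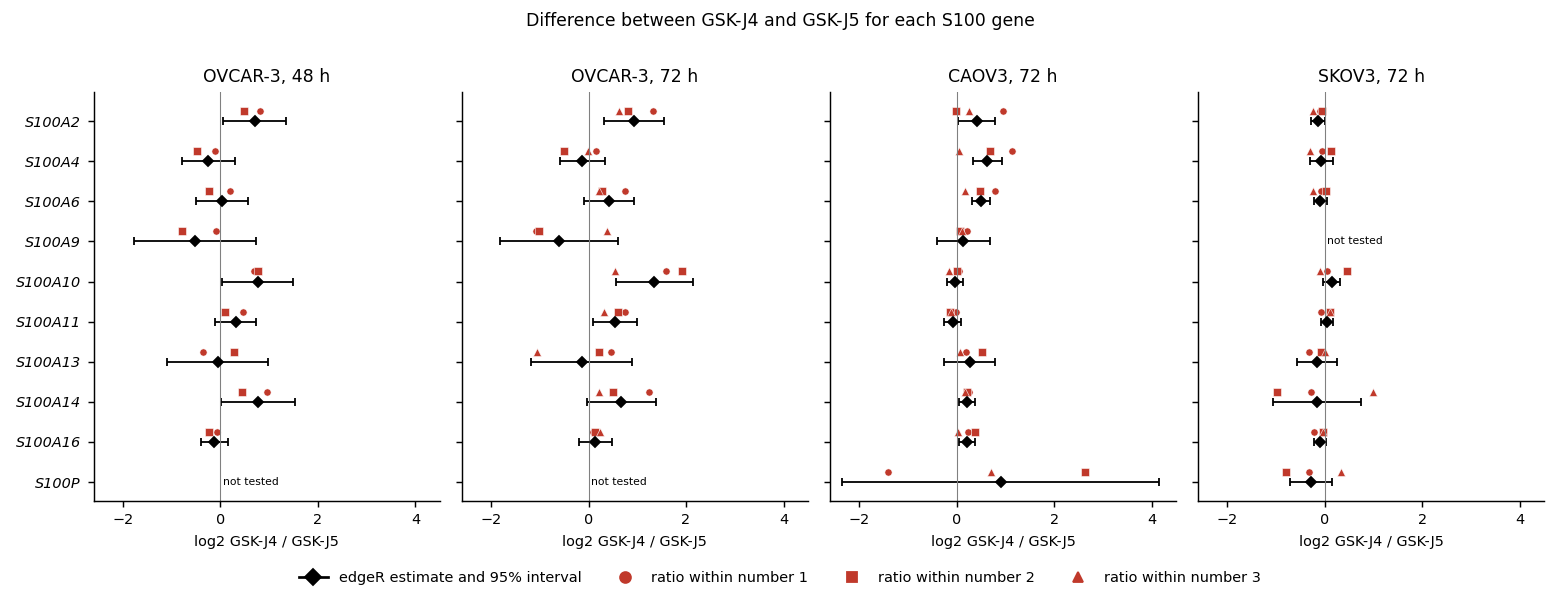
Log2 difference between GSK-J4 and GSK-J5 (x axis) for each S100 gene in the 4 comparisons, with edgeR estimates and 95% intervals in black and the ratio within each replicate number in red. In OVCAR-3 at 72 h S100A10 is at 1.35 and S100A2 at 0.93, in CAOV3 S100A4 is at 0.63 and S100A6 at 0.49, and in SKOV3 every estimate lies between −0.29 and 0.14.

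In CAOV3, S100A6 was called higher with GSK-J4, S100A4 had a fitted log2 difference of 0.63 that was not called, and S100A10 and S100A11 were at −0.03 and −0.08. edgeR called 1 of the 10, S100A6, where 0.315% of 17137 genes were called, and 5 members and 2801 genes had an unadjusted p under 0.05. DESeq2's Wald test called S100A4, S100A6 and S100A14 higher, where it called 2.54% of genes. S100A16 alone was without overlap (higher with GSK-J4), against 5.28% of genes separated higher and 6.97% separated lower. S100A6 had 1781, 1873 and 1358 CPM with GSK-J5 and 3089, 2622 and 1535 with GSK-J4, or 1671 ± 274 and 2415 ± 798 (SD, n = 3). The ratio was above 1 within each number (1.73, 1.40 and 1.13), and smallest in replicate 3. The fitted difference was 0.49 on the log2 scale (SE 0.09, 1.41-fold). The call for S100A6 was lost without any 1 of the 4 libraries of replicates 1 and 2, with the replicate block, without the set term and in the 18-library fit. Without replicate 3, S100A4 and S100A16 were called beside it, where 14.1% of genes were called, and without either 1 of its libraries S100A14 was too.

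S100A4 in CAOV3 had 63.4, 72.1 and 63.7 CPM with GSK-J5 and 138, 116 and 65.5 with GSK-J4. Replicates 1 and 2 with GSK-J4 lay above the GSK-J5 range, at ratios of 2.18 and 1.61 within their numbers, whereas replicate 3 was at 1.03. The fitted log2 difference was 0.63 (SE 0.14, 1.55-fold), and edgeR did not call it. MYH9, the heavy chain of nonmuscle myosin that S100A4 binds, was not called (log2 −0.56, SE 0.22, edgeR adjusted p = 0.298).

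Smaller differences in CAOV3 were seen in S100A14 and S100A16. S100A14 had 307, 288 and 253 CPM with GSK-J5 and 365, 336 and 285 with GSK-J4 (log2 0.22, SE 0.08). S100A16 had 414, 371 and 436 against 489, 478 and 446 (log2 0.22, SE 0.08). Both were higher with GSK-J4 within each number, by at most 1.29-fold. S100A2 had 13.8, 19.1 and 7.92 CPM against 26.9, 18.7 and 9.50 (log2 0.41, SE 0.18), with GSK-J4 above GSK-J5 in replicates 1 and 3 and below it in replicate 2.

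S100A10, the member with the largest difference in OVCAR-3, had 371, 371 and 338 CPM with GSK-J5 and 384, 372 and 303 with GSK-J4 in CAOV3. The log2 difference was −0.03, with a 95% interval of −0.19 to 0.13. S100A11 had 270, 265 and 235 against 269, 241 and 216 (log2 −0.08, 95% interval −0.25 to 0.08). S100A9 had 4.10, 3.73 and 4.70 against 4.72, 3.92 and 5.05 (log2 0.13, SE 0.26), and S100A13 was at 4.65 ± 1.79 against 5.69 ± 2.31 CPM (SD, n = 3). S100P held 14 and 25 counts over the 3 libraries of each compound, too few for a direction.

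In SKOV3 no member was called, where 0.0412% of 16981 genes (7 genes) were called, and none was without overlap, against 1.75% of genes separated higher and 1.68% separated lower. No member had an unadjusted p under 0.05, against 594 genes, and DESeq2's Wald test called none, where it called 0.0657% of genes. There were 9 members tested, since S100A9 had 1 count in the 6 libraries. S100A6 had 3295, 3389 and 1777 CPM with GSK-J5 and 3110, 3450 and 1506 with GSK-J4 (log2 −0.10, 95% interval −0.23 to 0.03). S100A4 had 1011, 1143 and 149 against 970, 1248 and 120 (log2 −0.07, 95% interval −0.30 to 0.16). Both compounds showed the same spread, with replicate 3 low.

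S100A10 in SKOV3 had 267, 241 and 184 CPM with GSK-J5 and 275, 331 and 171 with GSK-J4 (log2 0.14, 95% interval −0.04 to 0.31). S100A2 had 313, 345 and 126 against 292, 329 and 107 (log2 −0.13, 95% interval −0.28 to 0.01). S100P had 21.7, 17.7 and 5.53 against 17.2, 10.1 and 6.99 (log2 −0.29, 95% interval −0.72 to 0.14). S100A11, S100A13, S100A14 and S100A16 lay between −0.16 and 0.04. For S100A2, S100A4, S100A6, S100A10, S100A11 and S100A16 the 95% intervals of this fit reached at most 0.31 on the log2 scale in either direction. They treat the libraries as independent, which the labels do not state.

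To ask whether GSK-J4 acted differently by line, all 18 libraries at 72 h were fitted together, so each pair of lines shares libraries with the next pair. The fit takes 1 estimate of spread per gene over all lines. For S100A10 and S100A11 its SE of a difference was below that of OVCAR-3 fitted alone (0.32 and 0.18), where edgeR called neither. OVCAR-3 minus CAOV3 was called for S100A10 (log2 1.39, SE 0.27) and S100A11 (0.64, SE 0.15), where 19.3% of 20252 genes were called. OVCAR-3 minus SKOV3 was called for S100A10 (1.22, SE 0.27), S100A2 (1.08, SE 0.26) and S100A11 (0.51, SE 0.15), where 20.8% were called. All of these were larger in OVCAR-3. Without the set term none of the 5 was called, where 3.53% and 4.14% of genes were. S100A11 against SKOV3 was also not called with the replicate block, without a low-count filter, without any 1 SKOV3 library, or without any 1 of the 4 OVCAR-3 libraries of replicates 1 and 2. DESeq2's Wald test called 3 members in OVCAR-3 minus CAOV3 (16.3% of genes) and 4 in OVCAR-3 minus SKOV3 (17.1%). S100A6 did not differ by a called amount between OVCAR-3 and CAOV3 (log2 −0.06, SE 0.20, 95% interval −0.48 to 0.36). CAOV3 minus SKOV3 was called for no member, where edgeR called 0% of genes, with 1077 genes and 3 members at an unadjusted p under 0.05, and DESeq2's Wald test called no member, where it called 0.0207% of genes. S100A6 differed by 0.59 there (SE 0.20) and S100A4 by 0.70 (SE 0.26).

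S100A4 ran against S100A10: its GSK-J4 effect was 0.73 lower in OVCAR-3 than in CAOV3 (log2 −0.73, SE 0.26, 95% interval −1.28 to −0.19), which edgeR did not call with TMM but did with DESeq2's size factors, without a low-count filter, or without any 1 replicate 3 library of OVCAR-3 or CAOV3. Without replicate 1, or without replicate 2, no member was called for OVCAR-3 against either line, in fits that called 0.0052% of genes or fewer. Without replicate 3, 4 members were called for OVCAR-3 minus CAOV3, S100A4 among them as lower, where 41.5% of genes were called, and 5 for OVCAR-3 minus SKOV3, where 42% were.

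The library sets differed for the members in ways that depended on the line. Replicate 3 is a single library per compound and line, so its distance from replicates 1 and 2 is given without a test. The set, its RNA kit, its medium and its library preparation cannot be told apart. In SKOV3, all 9 members with at least 10 counts in 3 or more libraries were lower in replicate 3 than in both other replicates, with both compounds, where 27.3% of 20485 genes were below and 28.5% above. In CAOV3 it was 6 of 9 members below (11.7% of genes) and 1 above (21.4%), and in OVCAR-3 it was 2 below (18.3%) and 5 above (15.6%). The 20485 genes were kept over all 22 libraries, whereas the members were limited to those counted in the line. These shares may therefore understate the share among genes counted like the members, and nothing is read from the members' counts.

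S100A4 in SKOV3 was 7.21-fold lower in replicate 3 than the mean of replicates 1 and 2 with GSK-J5, and 9.23-fold lower with GSK-J4. S100P was 3.57-fold and 1.95-fold lower, S100A2 2.61-fold and 2.92-fold, and S100A6 1.88-fold and 2.18-fold. S100A11 and S100A16 moved least there, by 1.28-fold or less. In the same SKOV3 libraries COL1A2, a fibroblast marker, was at 2.58 and 2.91 CPM in replicate 3 against 149 to 199 CPM in replicates 1 and 2, and EPCAM was at 3.58 and 3.38 against 15.4 to 19.9. COL3A1, DCN and LUM were also below both other replicates there, but COL1A1 was at 471 and 418 CPM in replicate 3 against 347 to 476, and the 5 fibroblast markers together ran from 424 to 731 CPM over the SKOV3 libraries. The part of these markers in the S100 levels was not tested.

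In OVCAR-3 the set difference was largest for S100A9, which was 7.19-fold higher in replicate 3 with GSK-J5 and 23.3-fold higher with GSK-J4. S100A14 was 2.28-fold and 1.40-fold higher and S100A11 1.56-fold and 1.21-fold higher. S100A10 was lower in replicate 3, by 1.29-fold with GSK-J5 and 2.98-fold with GSK-J4. In CAOV3, S100A2 was 2.08-fold and 2.40-fold lower and S100A13 1.88-fold and 2.27-fold lower, whereas S100A4 was 1.06-fold lower with GSK-J5 and 1.94-fold lower with GSK-J4. For S100A10 in OVCAR-3 and S100A4 in CAOV3 the distance between sets was thus larger with GSK-J4 than with GSK-J5.

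**Figure D5:**
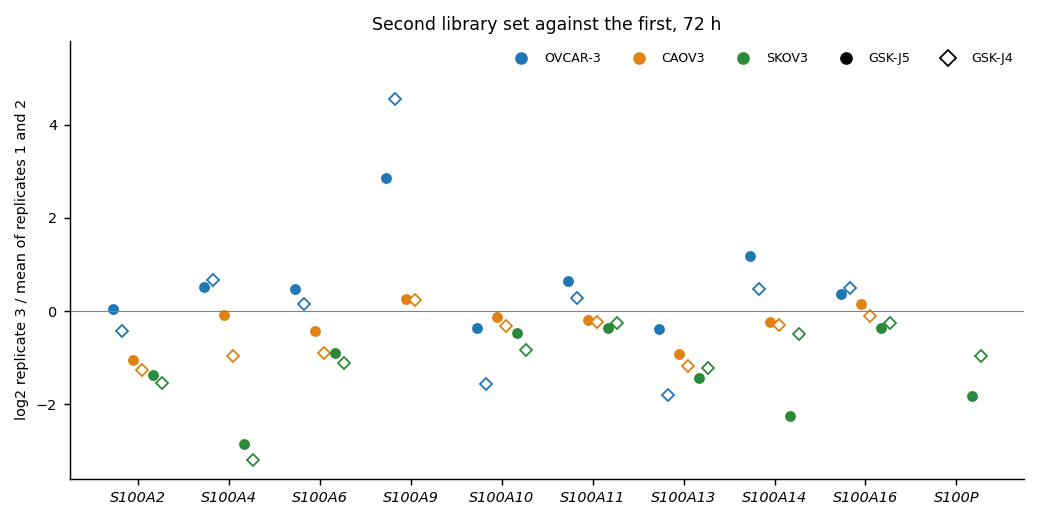
Log2 ratio of replicate 3 (second library set) to the mean of replicates 1 and 2 (first set) at 72 h for each S100 gene, by line (colour) and compound (filled, GSK-J5; open, GSK-J4), where both sides had at least 10 counts. SKOV3 points are all below 0, down to −3.21 for S100A4, and S100A9 in OVCAR-3 is at 2.85 and 4.54.

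Genes around and beyond the members were read from 5 lists. Over all 5, edgeR called 9 of 35 tested genes in OVCAR-3 at 48 h, 0 of 34 at 72 h, 1 of 34 in CAOV3 and 0 of 38 in SKOV3, where 17, 21, 11 and 1 had an unadjusted p under 0.05 and DESeq2's Wald test called 14, 17, 3 and 0. The 9 calls at 48 h rest on 2 libraries per compound: none of them held with the replicate block (adjusted p = 0.0516 to 0.0744) or without any 1 of the 4 libraries of 48 h, and only FLG, HRNR and CRTC2 held without the set term. Of 13 annexins, 9 were tested in OVCAR-3 at 48 h, and ANXA4 rose (log2 1.14, SE 0.28, edgeR adjusted p = 0.0345) while ANXA6 (log2 −1.15, adjusted p = 0.0405) and ANXA9 (log2 −0.92, adjusted p = 0.0239) fell. The median of the 9 was 0.13, against −0.03 for all genes. At 72 h none of 9 was called in OVCAR-3 (median 0.54, all genes −0.08), nor any of 11 in CAOV3 (median 0.05, all genes −0.01) or 13 in SKOV3 (median 0.00, all genes 0.00). ANXA11, a further annexin bound by S100A6, was not called in any comparison, at log2 0.13 and 0.16 in OVCAR-3 at 48 h and 72 h, −0.02 in CAOV3 and 0.00 in SKOV3. ANXA1 and ANXA2 were at −0.04 and 0.05 in CAOV3 and 0.07 and 0.05 in SKOV3.

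Of 13 partners and receptors of S100 proteins, 1 was called in any comparison. AHNAK fell in CAOV3, from 552, 573 and 533 CPM to 315, 381 and 462 (log2 −0.53, SE 0.11, edgeR adjusted p = 0.0443), groups that did not overlap. It was the only one of the 5 lists' genes called in CAOV3, and it was not called with DESeq2's size factors, with the replicate block, without the set term, in the 18-library fit, or without any 1 of the 4 libraries of replicates 1 and 2. The median of the list was −0.36 in OVCAR-3 at 48 h (10 tested), −0.01 at 72 h (10 tested), −0.20 in CAOV3 (11 tested) and 0.00 in SKOV3 (12 tested). AGER, which encodes the receptor RAGE, did not exceed 2.86 CPM in any library, and TLR4, a receptor for S100A8 and S100A9, was at 0 CPM in all 6 CAOV3 libraries and at most 0.0314 in OVCAR-3.

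Genes of the epidermal differentiation complex lie between S100A11 and S100A9 on chromosome 1. FLG, which encodes filaggrin, a fused-type S100 protein of skin, had 258 and 291 CPM with GSK-J5 and 56.4 and 58.6 with GSK-J4 in OVCAR-3 at 48 h, and fell by 2.23 on the log2 scale (SE 0.42, edgeR adjusted p = 0.0214). HRNR, of the same fused type, fell as well (log2 −3.38, SE 0.75, adjusted p = 0.029), from 2.30 and 2.71 CPM to 0.315 and 0.147. These were 2 of 3 tested genes of 14. At 72 h FLG had 241, 233 and 123 CPM with GSK-J5 and 28.2, 28.5 and 61.7 with GSK-J4, which did not overlap but was not called (log2 −2.40, SE 0.43, edgeR adjusted p = 0.07). In CAOV3 and SKOV3 no FLG library exceeded 0.465 CPM.

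Of 10 genes that flank the cluster in 1q21, all tested, CRTC2 rose most in OVCAR-3 at 48 h (log2 2.14, SE 0.45, edgeR adjusted p = 0.0257) and GATAD2B (log2 1.03, adjusted p = 0.0455) and CHTOP rose too, whereas INTS3 fell (log2 −1.53, adjusted p = 0.0374). The median of the 10 was −0.21. None of the 10 was called at 72 h in any line, with medians of −0.60 in OVCAR-3, −0.09 in CAOV3 and 0.04 in SKOV3. Of the other S100 genes, none was called in any comparison, and S100A3 in CAOV3 had 0.154, 0.304 and 0.248 CPM with GSK-J5 and 1.60, 1.53 and 0.456 with GSK-J4 (log2 2.17, SE 0.90, edgeR adjusted p = 0.229).

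The summed level of the 10 members followed these differences. In OVCAR-3 at 72 h it was 1012, 1005 and 1258 CPM with GSK-J5 and 2028, 1943 and 1540 with GSK-J4, groups that did not overlap. In CAOV3 it was 3231, 3267 and 2699 against 4773, 4195 and 2868, where replicate 3 with GSK-J4 was below replicates 1 and 2 with GSK-J5. In SKOV3 it was 6029, 6151 and 3070 against 5656, 6394 and 2749. S100A6 gave the largest part of the sum in CAOV3 and SKOV3 with both compounds. In OVCAR-3 at 72 h it did so with GSK-J5 (mean 398 CPM against 264 for S100A10). With GSK-J4 the S100A10 mean was larger there (752 against 529), though not in replicate 3 (324 against 566). S100A10 gave the largest part of the gain in OVCAR-3.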

How the data were processed

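RNA-seq libraries of OVCAR-3, CAOV3 and SKOV3 cells with GSK-J4 or GSK-J5 were read from 3 deposited tables of whole-number counts per gene, raw and without normalization, as the values show. The submitters' processing notes name STAR and DESeq2 with GRCh38 (hg38). They give no counting tool, strand setting or annotation, which are not given in the sources used. One shortened OVCAR-3 header was read as GSK-J4 replicate 3 at 72 h.

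Symbols came from a gene name table (58472 identifiers) or GENCODE release 29 (345), which also gave coordinates and exon lengths. The members and the lists were chosen with earlier results of these data known. All members are named in each comparison. So are S100A8, ANXA1, ANXA2 and ANXA11, and, of each list, up to 3 called genes with the largest change.

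Fits used R 4.3.3 and edgeR 4.0.16 (TMM, filterByExpr with a minimum count of 10, robust quasi-likelihood test), with the library set as a covariate. Adjusted p-values (Benjamini-Hochberg) cover every gene in a fit, and calls are those under 0.05. Shares for DESeq2's Wald test are of all genes with any count in the fit, a wider base than edgeR's filtered genes. Genes that DESeq2 left without an adjusted p-value counted as not called. Each line at 72 h was fitted alone on 6 libraries. OVCAR-3 at 48 h, and its difference from 72 h, used 10 libraries, the effects between lines 18 with the set nested in the line, and control levels 9. Standard errors (SE) were taken from the log2 estimate and its F statistic. Ratios within replicate numbers used CPM plus 0.1. The fits were tested on simulated data.

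Deviations from group means correlated within replicate numbers by 0.2917 to 0.6596 in SKOV3, above 0.1 in every pair. The values were 0.01004 to 0.1627 in CAOV3 and −0.07397 to 0.06424 in OVCAR-3. The group means were not adjusted for library set. A set difference shared by both compounds would raise these correlations too, so they cannot show whether numbers pair libraries.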

Additional observations from a re-analysis of the deposited data

Results flagged for a closer look

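In 5 cases the test of the difference itself, in the joint fit of the 72 h libraries, called the GSK-J4 effect on a member different between 2 lines. That fit pools the spread over the lines, and edgeR called none of these members in OVCAR-3 fitted alone. S100A10 differed by 1.39 (SE 0.27) between OVCAR-3 and CAOV3 and by 1.22 (SE 0.27) between OVCAR-3 and SKOV3, on the log2 scale. S100A11 differed by 0.64 (SE 0.15) and 0.51 (SE 0.15) in the same pairs. S100A2 differed by 1.08 (SE 0.26) between OVCAR-3 and SKOV3. The effect was larger in OVCAR-3 each time. Over all genes, 19.3% and 20.8% were called in these pairs. No member was called in either pair without the set term, without replicate 1 or without replicate 2. These genes were chosen with results of these libraries in view, so the calls are a description.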

How the results depend on the processing

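Counts of called members moved with the processing. No low-count filter gave 2 members at 48 h (12.9% of all genes called) and 1 at 72 h (4.56%) in OVCAR-3 and 2 in CAOV3 (3.27%). DESeq2's Wald test gave 3 in OVCAR-3 at 72 h (21.2%) and 3 in CAOV3 (2.54%), and 14, 17 and 3 genes of the 5 lists (OVCAR-3 at 48 h and 72 h, CAOV3), against 9, 0 and 1. In OVCAR-3 the 48 h libraries alone gave 4 (62%), the 18-library fit 5 (37.7%) and the 10-library fit 3 (43.8%) at 72 h. The 18-library fit gave 0 in CAOV3 (0%). Without the set term, 0 members were called in CAOV3 and in OVCAR-3 minus CAOV3 or SKOV3, and 3 and 0 list genes in OVCAR-3 at 48 h and CAOV3. DESeq2's size factors gave 0 list genes in CAOV3. With CPM by library total, 1 member instead of 2 did not overlap in OVCAR-3 at 72 h.

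With the replicate block, 0 members were called in CAOV3, and 0 list genes in OVCAR-3 at 48 h and in CAOV3. In these lines deviations correlated within replicate numbers by 0.1627 at most. In SKOV3 the block changed no call.

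Leaving out replicates or single libraries gave 0 to 3 members in OVCAR-3 at 48 h, 0 to 5 at 72 h, 0 to 4 in CAOV3, 0 in SKOV3 and 0 to 1 for 72 h minus 48 h. Effects between lines ran from 0 to 4 (OVCAR-3 minus CAOV3), 0 to 5 (OVCAR-3 minus SKOV3) and 0 to 1 (CAOV3 minus SKOV3). Control levels ran from 2 to 7, 6 to 9 and 5 to 9 in the same pairs. The share of all genes called moved with these fits as well. Without replicate 3 it was 14.1% in CAOV3 against 0.315% with all libraries, and 27% against 0.00575% for 72 h minus 48 h. For OVCAR-3 minus CAOV3 it was 41.5% against 19.3%, and for OVCAR-3 minus SKOV3 42% against 20.8%. Nothing is read from the members' ranges. List genes ran from 0 to 23, 0 to 28 and 0 to 8 in OVCAR-3 at 48 h and 72 h and in CAOV3. In OVCAR-3 the highest counts came without replicate 3 of 72 h, with either compound, where 54.6% to 59% of all genes were called at 48 h and 65.4% to 71.7% at 72 h; the cause was not tested. Of 595 alternative values of the members' log2 differences, 578 moved by less than the spread between libraries. The alternatives refit the same libraries or most of them, which by itself keeps their values near the main ones, so nothing is read from this count. The called difference, S100A6 in CAOV3, kept its sign in all 15. Some other members changed sign. S100A13 in OVCAR-3 at 72 h kept it in 12 of 16, S100A6 in OVCAR-3 at 48 h in 16 of 19 and S100A4 in SKOV3 in 11 of 15. Low counts limit S100A9, S100P and S100A13.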
